A study of Mus musculus with 11 samples.

Results

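Peptide loading onto MHC class I was followed through 10 genes: the tapasin genes *Tapbp* and *Tapbpl*, the transporter genes *Tap1* and *Tap2*, the aminopeptidase gene *Erap1*, the chaperone gene *Calr*, the light chain gene *B2m*, the heavy chain genes *H2-K1* and *H2-D1*, and *Nlrc5*, which encodes their transcriptional activator. The genes were taken by name. All 10 were among the 24421 genes of the count table, and all 10 passed the filter for low counts that left 10951 genes for testing. The data are bulk RNA-seq of tumor cDC1s, the conventional type 1 dendritic cells that cross-present tumor antigen, sorted from B16 melanoma grown in mice. The control group had 4 pools, the XBP1ΔDC group 4 and the XBP1ΔDCIRE1truncDC group 3. XBP1ΔDC mice were XBP1 fl/fl with CD11c-CRE, and XBP1ΔDCIRE1truncDC mice were XBP1 fl/fl, IRE1 fl/fl with CD11c-CRE. Controls carried floxed alleles without Cre: control replicates 1 to 3 were XBP1 fl/fl, and control replicate 4 was XBP1 fl/fl, IRE1 fl/fl. XBP1 fl/fl was thus shared by all 11 pools. The mice were C57BL/6 of both sexes, 6 to 14 weeks old, and each pool held 5000 to 20000 cells from the tumors of 2 to 4 mice. CD11c-CRE also recombines in other CD11c+ cells, so the cDC1s of these mice developed beside other targeted cells. The Xbp1 deletion removes an exon and leaves a transcript that reads can still count, and the Ern1 deletion leaves a truncated IRE1 without its RNase domain.

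MHC class I molecules take up peptides in the endoplasmic reticulum. The TAP transporter brings peptides from the cytosol, ERAP1 trims them, and tapasin, encoded by *Tapbp*, holds the empty heavy chain and its light chain beside TAP, with calreticulin and the oxidoreductase ERp57, until a stable peptide binds. IRE1 is an endoplasmic reticulum sensor whose RNase splices *Xbp1* mRNA into the form that encodes the transcription factor XBP1s, and when XBP1 is lost the RNase becomes overactive and also cleaves other mRNAs, a process called regulated IRE1-dependent decay (RIDD). Comparing both genotypes therefore asks which transcripts change with loss of XBP1 and whether the change remains once IRE1 has lost its RNase as well.

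Total counts per pool ranged from 21089065 to 26843486, so depth was similar in the 3 groups. Counts were scaled by TMM in edgeR and are given below as CPM, the counts scaled to a common library total. *Xbp1*, the gene targeted in both lines, was at 244 to 271 CPM in controls, 130 to 165 in XBP1ΔDC and 179 to 236 in XBP1ΔDCIRE1truncDC pools. *Ern1*, which encodes IRE1, was at 9.82 to 18.99, 9.74 to 15.59 and 17.00 to 25.99 CPM in the same order. The 10 cDC1 marker genes summed to 8309 to 10029 CPM in every pool, whereas the T and NK cell and the neutrophil markers summed to at most 10.7 and 1.56 CPM and had no gene that passed the filter. Against control, *Itgae* in both mutants (log2 difference -0.26 and -0.24) and *Zbtb46* in XBP1ΔDCIRE1truncDC (0.30) had an unadjusted p under 0.05 in edgeR. The other cDC1 markers did not, and none was called by edgeR. Of all genes 7.62% in XBP1ΔDC and 11.2% in XBP1ΔDCIRE1truncDC had such a p. Nothing in the labels says that pools came from separate experiments, so p-values measure the spread between these pools. In bulk samples, fewer cells of a type and less RNA per cell cannot be told apart.

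Per kilobase of exon, the 10 transcripts covered a wide range in control cDC1s. *B2m*, the invariant light chain, was highest at 3318 ± 402 CPM per kb (SD, n = 4), at rank 8 of the 10559 tested genes that had a length. The heavy chains followed, with *H2-D1* at 614 ± 48.0 and *H2-K1* at 481 ± 51.3 CPM per kb. The next pair did not separate: *Calr* stood at 376 ± 23.3 and *Tapbp* at 341 ± 28.9 CPM per kb, with overlapping control pools. *Tap1* at 213 ± 21.1 and *Tap2* at 200 ± 14.7 CPM per kb, the paired chains of the transporter, also overlapped. *Tapbpl*, the tapasin-related gene that encodes TAPBPR, was at 57.5 ± 7.43 CPM per kb and *Erap1* at 18.8 ± 0.951. The activator *Nlrc5* was lowest at 7.43 ± 0.742 CPM per kb, at rank 4696. Every other pair of neighbours in this order was separated in the control pools, and the same order held for the group means of XBP1ΔDC and XBP1ΔDCIRE1truncDC pools. The order in the middle depends on the length used, here all exons of a gene. Per kilobase of the single transcript whose sequence is used below, *H2-K1* (872 ± 93.1, n = 4) stood above *H2-D1* (754 ± 58.9) with overlapping pools, *Tap1* was at 396 ± 39.1 and overlapped with *Tapbp* (427 ± 36.2), and *Tap2* (220 ± 16.1) lay apart below both.

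In XBP1ΔDC cDC1s 1 of the 10 transcripts changed. *Tapbp* fell by 31%, while *Tap1*, *Tap2*, *Erap1*, *B2m*, *H2-K1* and *H2-D1* each lay within 3% of control. The call of *Tapbp* held in 12 of 23 alternative settings and was lost in 11. Settings that lost it included the fit of only the 2 genotypes compared (edgeR adjusted p = 0.0621) and the fit with a replicate block. That count of 1 in 10 at an adjusted p under 0.05 stands beside 0.895% of all 10951 genes tested. At an unadjusted p under 0.05 there were 2 members, *Tapbp* on the lower and *Nlrc5* on the higher side, against 7.62% of all genes. The pools of the groups did not overlap for 1 member, *Tapbp*, against 5.31% of all genes. The median log2 fold change of the 10 was 0.0025, and that of all genes 0.005.

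In XBP1ΔDCIRE1truncDC cDC1s none of the 10 passed the test against control, although all 10 fitted values lay above it, that of *Erap1* by so little that it lay below control with upper quartile scaling. Of all 10951 genes, 5411 lay above control. The 10 do not count as independent, since several moved together from pool to pool, as given below. Calls at an adjusted p under 0.05 were 0 of 10, against 0.356% of all genes. At an unadjusted p under 0.05 there were 2, *Calr* and *Nlrc5*, both on the higher side, against 11.2% of all genes. Pools did not overlap for *Nlrc5* alone, against 10.1% of all genes. The median log2 fold change was 0.17 for the 10 genes and -0.0031 for all genes, with single members from 0.0048 (*Erap1*) to 0.49 (*Nlrc5*). DESeq2 and limma-voom also called 0 of the 10 in this comparison.

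Set directly against XBP1ΔDC, the XBP1ΔDCIRE1truncDC pools had 0 members at an adjusted p under 0.05 in edgeR, where 0.0731% of all genes passed. 1 member, *Tapbp*, had an unadjusted p under 0.05, against 5.29% of all genes. Pools did not overlap for *Tapbp* and *Tap2*, both on the higher side, against 6.07% of all genes. The median log2 fold change was 0.14 for the 10 and 0.0015 for all genes. DESeq2 called *Tapbp* in this comparison and limma-voom called no member. Both comparisons with control share the 4 control pools, and the comparisons with XBP1ΔDC share its pools, so the values are set side by side only.

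**Figure D1:**
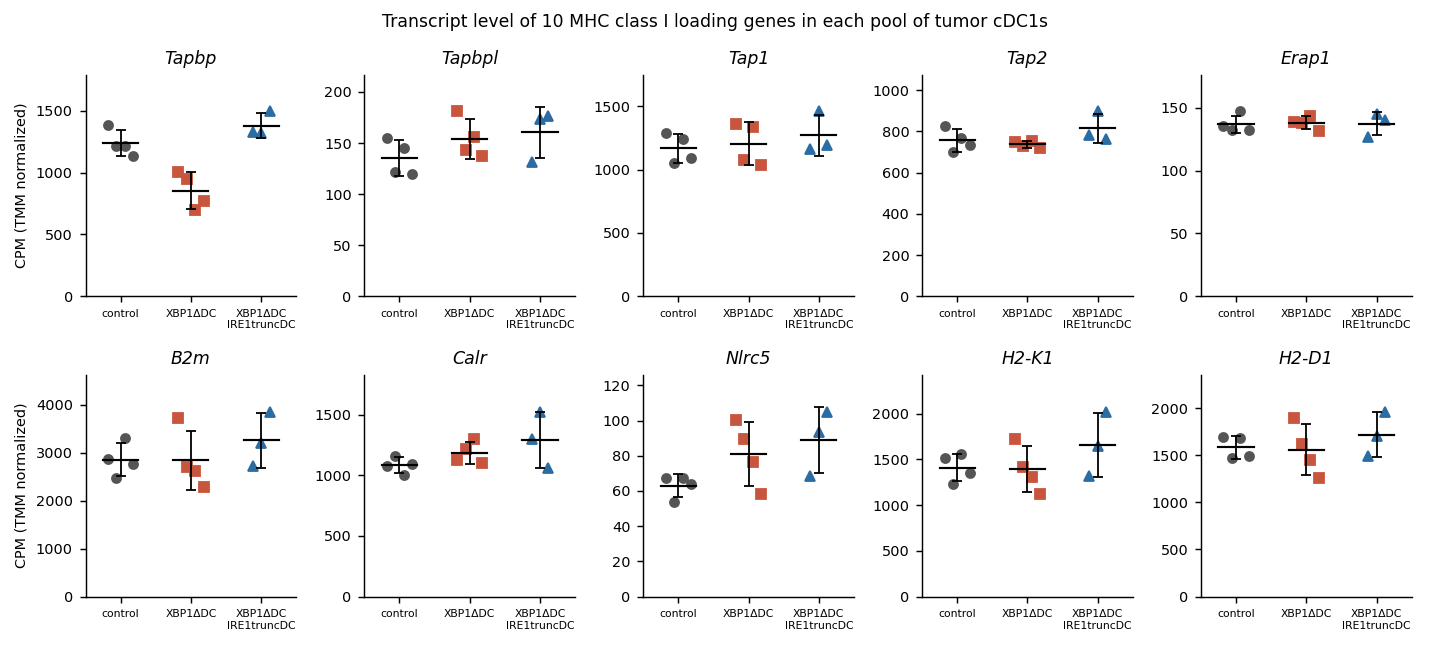
Transcript level of the 10 genes in each of the 11 pools, in CPM from 0 (points: pools, replicate number from left to right; line and bar: mean ± SD of each genotype). *Tapbp* is the single panel in which the 4 XBP1ΔDC pools lie below every control pool.

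**Figure D2:**
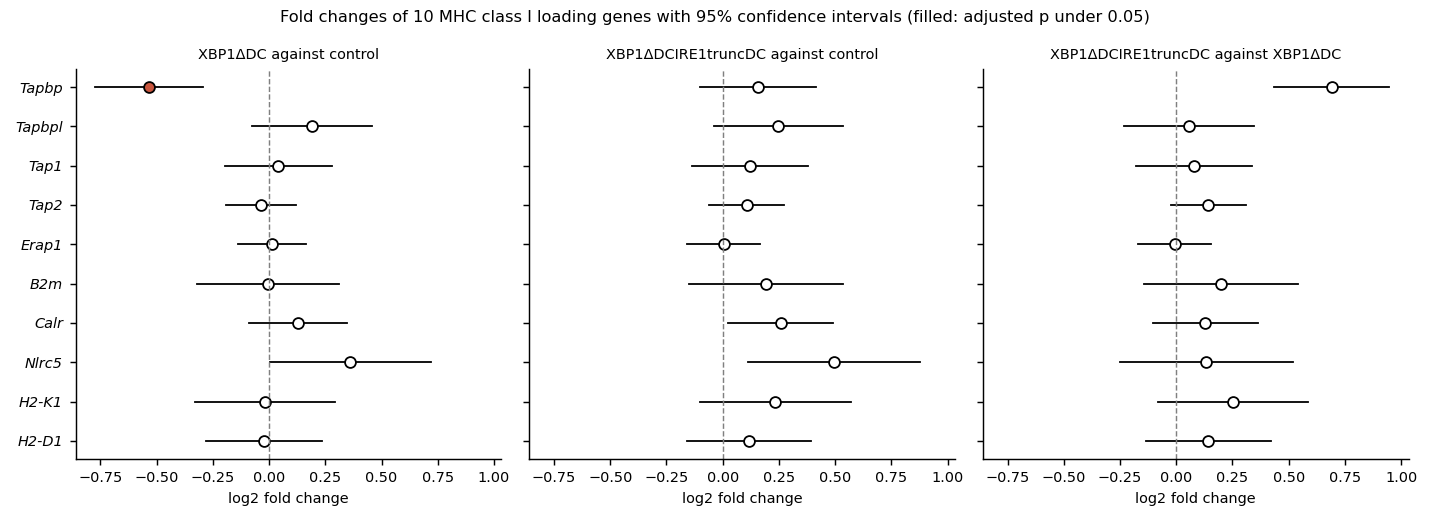
Log2 fold change of the 10 genes in the 3 comparisons (points: edgeR estimates; bars: 95% confidence intervals; filled: adjusted p under 0.05). Only the interval of *Tapbp* leaves 0 in XBP1ΔDC by a wide margin on the lower side, and it lies above 0 when XBP1ΔDCIRE1truncDC is set against XBP1ΔDC.

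*Tapbp* (chr17:33915899-33929292, plus strand, GRCm38, 8 exons in the transcript used) encodes tapasin, the chaperone that bridges the heavy chain to TAP and edits the peptide. Its level was 1385, 1212, 1216 and 1136 CPM in control replicates 1 to 4. In XBP1ΔDC replicates 1 to 4 it was 1003, 951, 695 and 768 CPM. In XBP1ΔDCIRE1truncDC replicates 1 to 3 it was 1326, 1316 and 1494 CPM. All 4 XBP1ΔDC pools thus stood below all 7 other pools, and the XBP1ΔDCIRE1truncDC pools overlapped with the controls. *Tapbp* fell by 0.53 on the log2 scale in XBP1ΔDC (standard error 0.111, 95% confidence interval -0.77 to -0.30, edgeR adjusted p = 0.0427), which is 0.690 times the control level. This was a change of under 1.5-fold. The study, which asked for more than 1.5-fold, did not find *Tapbp* differentially expressed in XBP1 deficient tumor cDC1s. In XBP1ΔDCIRE1truncDC the log2 difference from control was 0.16 (standard error 0.119, interval -0.10 to 0.41, edgeR adjusted p = 0.705). Against XBP1ΔDC it was 0.69 (standard error 0.118, interval 0.43 to 0.95), 1.61 times as high, with an unadjusted p of 6.42e-05 and an adjusted p of 0.0639 in edgeR. The adjusted p against control was close to the threshold. It was 0.0592 to 0.148 when control replicate 1, 2, 3 or 4, XBP1ΔDC replicate 2, 3 or 4, or XBP1ΔDCIRE1truncDC replicate 1 was left out, and the log2 fold change then ranged from -0.59 to -0.44.

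The mRNA of *Tapbp* is on the list of RIDD targets that the study used. IRE1 is known to cleave within a CUGCAG-type loop, so the hexamer CTGCAG was searched on the sense strand of the mRNAs (GENCODE vM21, GRCm38). The *Tapbp* transcript held 1, in exon 5 of 8 within the coding sequence, at chr17:33926235-33926240 on the plus strand. *Tapbpl*, its relative on another chromosome, held 5, and the sites of both genes are shown with 12 bases on each side and the hexamer in capitals, because they let the tapasin gene that fell be read beside the one whose level did not.

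Tapbp exon 5: cagtctgggcacCTGCAGctacctccagtc
Tapbpl 5′ leader exon 1: aagcagagctggCTGCAGccattactggcc
Tapbpl coding exon 3: gctccatgctgaCTGCAGcgggaaggcagt
Tapbpl coding exon 4: tgtctccctgcaCTGCAGtttctccatggc
Tapbpl coding exon 4: gtggagtggcggCTGCAGcataaaggcagc
Tapbpl coding exon 5: gccttccctcgtCTGCAGcattgccggcta

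In the order printed, the *Tapbpl* hexamers lie on the minus strand at chr6:125231784-125231789, chr6:125230366-125230371, chr6:125228329-125228334, chr6:125228277-125228282 and chr6:125226736-125226741, the first in the untranslated leader and the others in coding sequence. Presence of the hexamer did not set *Tapbp* apart. Of transcripts within 10% of its length, 87.8% held at least 1, and 10% of those near *Tapbpl* in length held 5 or more. *Tap1*, *Tap2* and *Erap1* held 3 each, *Calr* 2, *H2-K1* and *B2m* 1, *H2-D1* 5 and *Nlrc5* 13. A match of these 6 letters is a description of the sequence and not a cleavage site, and read counts per gene do not show cleavage.

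Within a pool, a ratio of 2 counts does not depend on how the pools were scaled. There were 9.24 *Tapbp* reads for each *Tapbpl* read at the median of the controls (8.36 to 9.97), 5.57 in XBP1ΔDC (4.45 to 6.66) and 8.49 in XBP1ΔDCIRE1truncDC pools (7.58 to 10.1). Relative to *Tap1*, the ratio was 0.979 to 1.15 in controls, 0.521 to 0.887 in XBP1ΔDC and 0.902 to 1.25 in XBP1ΔDCIRE1truncDC. Relative to the light chain *B2m*, it was 0.368 to 0.489, 0.264 to 0.351 and 0.387 to 0.488. Tapasin mRNA was therefore lower per transporter and per light chain mRNA in each XBP1ΔDC pool than in any other pool. The same separation was seen for *Tapbp* to *H2-K1* (0.530 to 0.686 in XBP1ΔDC, 0.781 to 0.986 in control and 0.739 to 1.01 in XBP1ΔDCIRE1truncDC). For *Tapbp* to *H2-D1* the ranges were 0.479 to 0.610, 0.720 to 0.827 and 0.761 to 0.890. The ratio of *H2-K1* to *H2-D1* ran from 0.839 to 0.922 in controls and from 0.877 to 0.910 in XBP1ΔDC, and 2 of the 3 XBP1ΔDCIRE1truncDC pools stood above these at 0.965 and 1.03. These ratios were chosen with the levels known and were not tested.

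**Figure D3:**
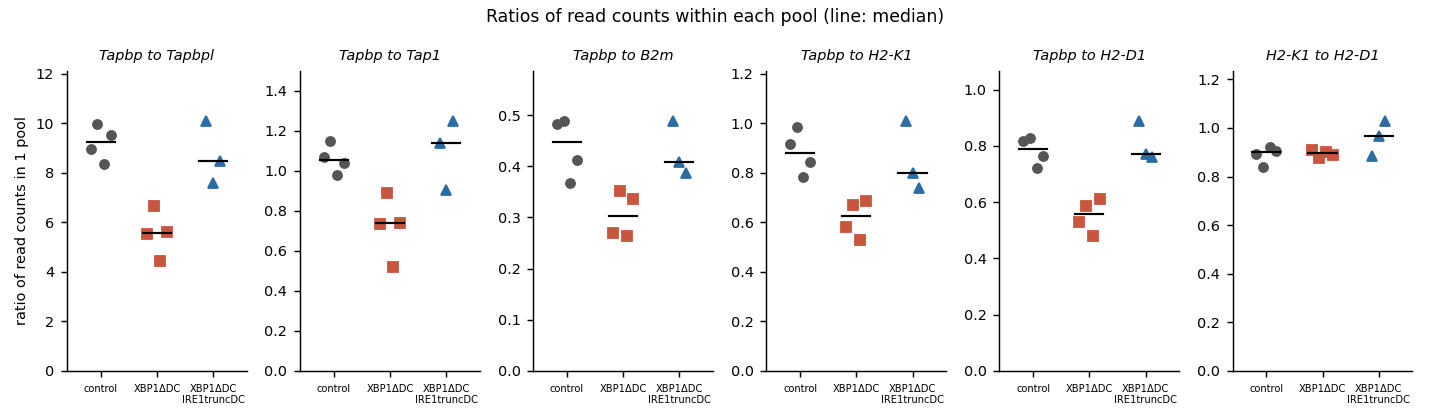
Ratio of read counts of 2 genes in each pool, from 0 (points: pools; line: group median). In the 5 panels with *Tapbp* the XBP1ΔDC pools lie below every pool of the other genotypes, and in the *H2-K1* to *H2-D1* panel the XBP1ΔDC and control pools overlap.

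*Tapbpl* (chr6:125223933-125231860, minus strand) encodes TAPBPR, which edits peptides outside the TAP-bound complex. Controls held 154.5, 121.6, 145.5 and 119.4 CPM, XBP1ΔDC pools 180.9, 142.7, 156.2 and 137.2 CPM, and XBP1ΔDCIRE1truncDC pools 131.9, 173.6 and 176.0 CPM. The 3 groups overlapped. The log2 difference from control was 0.19 in XBP1ΔDC (interval -0.077 to 0.46, edgeR adjusted p = 0.833) and 0.25 in XBP1ΔDCIRE1truncDC (interval -0.040 to 0.53, edgeR adjusted p = 0.533). The lower bound of the interval in XBP1ΔDC, -0.077, is above the upper bound for *Tapbp*, -0.30.

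*Tap1* (chr17:34187553-34197225, plus strand) and *Tap2* (chr17:34203527-34216321, plus strand) are neighbours in the MHC and encode the paired chains of the peptide transporter. *Tap1* was at 1290, 1050, 1242 and 1093 CPM in controls, 1363, 1072, 1334 and 1040 in XBP1ΔDC and 1162, 1459 and 1194 in XBP1ΔDCIRE1truncDC pools. *Tap2* was at 827.5, 697.5, 769.9 and 732.9 CPM in controls, 750.1, 729.3, 753.2 and 719.4 in XBP1ΔDC and 782.5, 896.5 and 765.1 in XBP1ΔDCIRE1truncDC pools. *Tap1* overlapped between all groups, and *Tap2* was lower in each XBP1ΔDC pool than in any XBP1ΔDCIRE1truncDC pool by a narrow margin. Against control, the log2 difference in XBP1ΔDC was 0.041 for *Tap1* (interval -0.20 to 0.28, edgeR adjusted p = 0.981) and -0.037 for *Tap2* (interval -0.19 to 0.12, edgeR adjusted p = 0.967). In XBP1ΔDCIRE1truncDC the differences were 0.12 and 0.11 (edgeR adjusted p = 0.786 and 0.688). For *Tap2* against XBP1ΔDC the value was 0.14 (interval -0.023 to 0.31, edgeR adjusted p = 0.967).

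*Erap1* (chr13:74639568-74693201, plus strand), the trimming aminopeptidase, had the lowest coefficient of variation of the 10 in controls (5.05%) and in XBP1ΔDCIRE1truncDC (6.82%), and in XBP1ΔDC (3.78%) only *Tap2* was lower (2.21%). It ranged from 132.5 to 147.1 CPM in controls, from 131.3 to 143.9 in XBP1ΔDC and from 127.0 to 145.1 in XBP1ΔDCIRE1truncDC. Its log2 differences were 0.011, 0.0048 and -0.0066 in the 3 comparisons, with 95% intervals that stayed between -0.17 and 0.17. A change of *Erap1* beyond 1.12-fold in either mutant against control was outside these intervals.

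The light chain *B2m* (chr2:122147686-122153083, plus strand) joins every class I heavy chain. It was at 2869, 2478, 3309 and 2758 CPM in controls, 3733, 2711, 2630 and 2291 in XBP1ΔDC and 2716, 3215 and 3857 in XBP1ΔDCIRE1truncDC pools. The heavy chain *H2-K1* (chr17:33996017-34000347, minus strand) was at 1512, 1230, 1557 and 1349 CPM in controls, 1729, 1421, 1312 and 1119 in XBP1ΔDC and 1317, 1644 and 2022 in XBP1ΔDCIRE1truncDC pools. *H2-D1* (chr17:35262730-35267499, plus strand), the other classical heavy chain of this strain, was at 1694, 1466, 1688 and 1490, then 1899, 1621, 1452 and 1259, then 1490, 1704 and 1962 CPM. All groups overlapped for the 3 genes, and the spread between pools, not tested, was wider in both mutants than in controls: the coefficient of variation of *B2m* was 12.1%, 21.9% and 17.5%, and that of *H2-K1* 10.7%, 18.3% and 21.2%. XBP1ΔDC replicate 1 was highest and replicate 4 lowest of its group for each of these genes, and XBP1ΔDCIRE1truncDC replicate 3 was highest and replicate 1 lowest. In XBP1ΔDC the log2 differences from control were -0.0063 for *B2m* (interval -0.32 to 0.31), -0.017 for *H2-K1* (interval -0.33 to 0.29) and -0.0245 for *H2-D1* (interval -0.28 to 0.23), each with an edgeR adjusted p of at least 0.989. These signs turned when the counts were scaled by library size alone. In XBP1ΔDCIRE1truncDC they were 0.19, 0.23 and 0.12 (edgeR adjusted p = 0.728, 0.644 and 0.818). Of the 50-base windows of the transcripts used, 8.79% of *H2-K1* and 14.3% of *H2-D1* were shared with another gene, with each other or with *H2-Q1* most often, so the split of reads between class I heavy chain genes is uncertain. The corresponding share was 2.00% for *Tapbp*, 3.52% for *Tapbpl*, under 1% for *Tap1*, *Tap2* and *Calr*, and 0 for *Erap1*, *B2m* and *Nlrc5*.

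*Calr* (chr8:84841850-84846934, minus strand) encodes calreticulin, the lectin chaperone that brings monoglucosylated heavy chains into the loading complex. It was at 1074, 1162, 999 and 1096 CPM in controls and at 1124, 1216, 1297 and 1098 CPM in XBP1ΔDC. XBP1ΔDCIRE1truncDC pools held 1299, 1524 and 1062 CPM, so 2 of the 3 stood above every control and the other within their range. The log2 difference from control was 0.26 in XBP1ΔDCIRE1truncDC (standard error 0.107, interval 0.026 to 0.49) with an unadjusted p of 0.0323 and an adjusted p of 0.384 in edgeR. In XBP1ΔDC it was 0.13 (standard error 0.0997, edgeR adjusted p = 0.889).

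*Nlrc5* (chr8:94434356-94527272, plus strand) encodes a NOD-like receptor family protein that drives transcription of class I genes in the nucleus. Controls held 67.2, 54.0, 67.5 and 63.7 CPM. XBP1ΔDC pools held 100.1, 89.6, 76.2 and 58.4 CPM, and XBP1ΔDCIRE1truncDC pools 68.3, 93.4 and 105.0 CPM. Thus 3 of 4 XBP1ΔDC pools and all 3 XBP1ΔDCIRE1truncDC pools stood above the highest control, the lowest of the latter by under 1 CPM. The log2 difference from control was 0.36 in XBP1ΔDC (standard error 0.165, unadjusted p = 0.0478, adjusted p = 0.646 in edgeR) and 0.49 in XBP1ΔDCIRE1truncDC (standard error 0.177, unadjusted p = 0.0155, adjusted p = 0.313 in edgeR). Neither passed, and no alternative setting brought *Nlrc5* past the threshold in any comparison.

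Within genotypes, the heavy and light chains moved with *Nlrc5* from pool to pool. For each gene the deviation of a pool from its genotype mean in log2 CPM was taken, and members were correlated over the 11 pools with exact permutation within genotypes (3456 arrangements, two-sided, 19 relations adjusted together). *H2-K1* followed *Nlrc5* with r = 0.96 and rho = 0.96 (permutation p = 0.000289, the smallest possible, and 0.000579, adjusted p = 0.0055 for both). *H2-D1* had r = 0.95 and rho = 0.95 (permutation p = 0.00174 and 0.00116, adjusted p = 0.00825 and 0.0055), and *B2m* r = 0.89 and rho = 0.91 (permutation p = 0.00492 and 0.00116, adjusted p = 0.0187 and 0.0055). Among 10950 other genes tested, *H2-K1* was at rank 2, *H2-D1* at rank 4 and *B2m* at rank 18 by r, where the median gene had -0.02. *Tapbpl* also passed, with r = 0.77 and rho = 0.77 (permutation p = 0.0153 and 0.015, adjusted p = 0.0416 and 0.0408). Without the 2 pools farthest from the median *Nlrc5* deviation, XBP1ΔDC replicate 4 and XBP1ΔDCIRE1truncDC replicate 1, r was 0.93 for *H2-K1*, 0.91 for *H2-D1*, 0.86 for *B2m* and 0.64 for *Tapbpl*. With counts scaled by library size alone *Tapbpl* no longer passed (r = 0.749, adjusted permutation p = 0.079).

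The other members did not pass against *Nlrc5*. *Tapbp* had r = 0.64 and rho = 0.79 (permutation p = 0.0995 and 0.0434, adjusted p = 0.139 and 0.0916), and *Erap1* r = 0.64 and rho = 0.61 (permutation p = 0.0634 and 0.0828, adjusted p = 0.109 and 0.131). The transporter genes were lower still, *Tap1* with r = 0.54 and rho = 0.45 (permutation p = 0.177 and 0.257) and *Tap2* with r = 0.34 and rho = 0.23 (permutation p = 0.335 and 0.535). *Calr* was the single member with a negative value, r = -0.20 and rho = -0.35 (permutation p = 0.683 and 0.363). Without the same 2 pools r was 0.69 for *Tapbp*, 0.25 for *Erap1* and *Tap1*, 0.22 for *Tap2* and -0.57 for *Calr*. *Calr* and *Nlrc5* were at opposite ends in XBP1ΔDCIRE1truncDC replicate 3, which had the lowest *Calr* and the highest *Nlrc5* of its group.

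**Figure D4:**
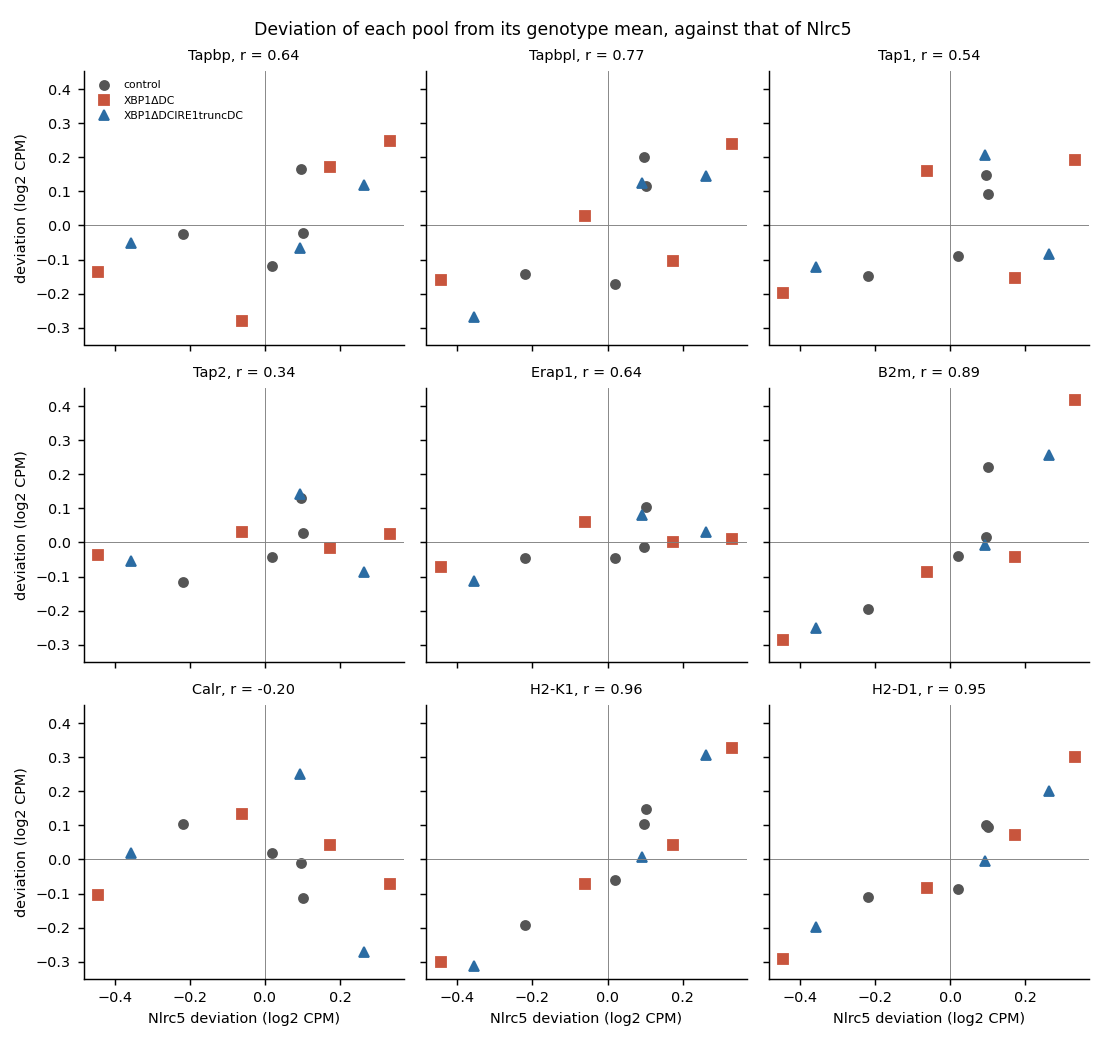
Deviation of each pool from its genotype mean for 9 members against that of *Nlrc5*, both in log2 CPM (points: 11 pools, shape and colour by genotype). The points of *H2-K1*, *H2-D1* and *B2m* lie close to a rising line, whereas those of *Tap2* and *Calr* scatter.

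The promoters of the 3 genes that moved with *Nlrc5* most closely are shown, because NLRC5 acts through an upstream module of class I promoters in which an X box, part of it like a cyclic AMP response element, precedes an inverted CCAAT or Y box. RefSeq sequences (GRCm38.p6) were at hand for 7 of the 10 genes. The start used is that of RefSeq and can differ from the end of the gene span given above. The windows of *H2-D1* and *Tapbp* lie inside those spans. The 250 bases before the start are printed 5′ to 3′ for *H2-K1* (chr17:34000348-34000597, minus strand), *H2-D1* (chr17:35262844-35263093, plus strand) and *B2m* (chr2:122147437-122147686, plus strand). Capitals mark matches on either strand to CCAAT, the cyclic AMP response core TGACG, the interferon-stimulated response core AANNGAAA and the kappa-B letters GGGATTCC.

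H2-K1: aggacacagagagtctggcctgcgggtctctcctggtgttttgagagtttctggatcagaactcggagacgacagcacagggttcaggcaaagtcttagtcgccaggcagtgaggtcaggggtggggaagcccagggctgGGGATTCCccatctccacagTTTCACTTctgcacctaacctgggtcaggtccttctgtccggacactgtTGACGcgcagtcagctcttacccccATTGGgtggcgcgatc
H2-D1: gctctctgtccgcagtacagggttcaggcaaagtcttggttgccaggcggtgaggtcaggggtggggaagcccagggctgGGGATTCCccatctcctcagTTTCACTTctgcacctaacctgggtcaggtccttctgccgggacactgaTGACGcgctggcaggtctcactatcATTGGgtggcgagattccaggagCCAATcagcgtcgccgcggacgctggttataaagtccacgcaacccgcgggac
B2m: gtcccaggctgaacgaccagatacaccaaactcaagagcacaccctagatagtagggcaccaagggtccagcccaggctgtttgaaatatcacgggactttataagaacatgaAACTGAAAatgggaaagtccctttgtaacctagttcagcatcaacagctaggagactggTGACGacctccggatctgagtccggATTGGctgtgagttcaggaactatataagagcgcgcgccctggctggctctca

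In all 3 windows TGACG was followed by ATTGG, the inverse of CCAAT, with 25 bases from start to start. Of 32851 RefSeq promoter windows of 300 bases, 31 (0.0944%) held this pair at that spacing on either strand. Among them were the windows of these 3 genes and that of *H2-M3*, another class I heavy chain. The spacing was read from the 3 genes first, so this share is a description and not a test. Single letters were far more common: 37.4% of the windows held CCAAT, 20.8% TGACG, 23.9% AANNGAAA and 1.06% GGGATTCC. The kappa-B letters, chosen after these windows were read, stood before the interferon core in both *H2-K1* and *H2-D1*, and were not in the *B2m* window. *Tapbp*, the member that fell, is shown for contrast with the same marks (chr17:33919228-33919477, plus strand): its window held CCAAT at 2 places on the minus strand and none of the other letters. *Calr* is shown (chr8:84846932-84847181, minus strand) because its window held an endoplasmic reticulum stress element, a long motif that includes a CCAAT and is found in 0.119% of windows. In *Calr* a further CCAAT overlaps an interferon core match.

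Tapbp: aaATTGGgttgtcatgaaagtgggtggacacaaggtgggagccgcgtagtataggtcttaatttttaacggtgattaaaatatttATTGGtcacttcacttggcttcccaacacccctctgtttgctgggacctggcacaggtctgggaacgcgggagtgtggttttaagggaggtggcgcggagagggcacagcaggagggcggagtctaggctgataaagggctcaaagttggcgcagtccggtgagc
Calr: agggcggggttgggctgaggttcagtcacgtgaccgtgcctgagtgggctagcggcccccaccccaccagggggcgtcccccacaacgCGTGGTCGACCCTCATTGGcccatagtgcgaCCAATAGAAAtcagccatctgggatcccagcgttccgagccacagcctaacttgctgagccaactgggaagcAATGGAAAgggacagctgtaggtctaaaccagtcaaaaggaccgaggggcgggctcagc

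Transporter, trimming and *Tapbpl* mRNAs tracked the interferon response from pool to pool, *Tapbpl* by r but not by rho. An index was the mean log2 CPM of 24 interferon-induced genes outside the 10. It was 3.96 to 4.64 in controls, 3.63 to 5.04 in XBP1ΔDC and 4.12 to 5.22 in XBP1ΔDCIRE1truncDC pools, so the groups overlapped. The deviation of *Tap1* followed that of the index with r = 0.85 and rho = 0.89 (permutation p = 0.00116 and 0.000868, adjusted p = 0.00825 and 0.0055). *Erap1* had r = 0.82 and rho = 0.85 (permutation p = 0.00145 for both, adjusted p = 0.00825 and 0.0055), *Tap2* r = 0.68 and rho = 0.78 (permutation p = 0.00897 and 0.00608, adjusted p = 0.0284 and 0.0192), and *Tapbpl* r = 0.76 and rho = 0.75 (permutation p = 0.0179 and 0.0295, adjusted p = 0.0426 and 0.0701). Without the 2 pools farthest from the median deviation of the index, again XBP1ΔDC replicate 4 and XBP1ΔDCIRE1truncDC replicate 1, r was 0.87, 0.75, 0.82 and 0.69 in the same order. When counts were scaled by library size alone, *Tap1* was the single member of these 4 that still passed.

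Heavy chains, light chain and *Nlrc5* had r of 0.65 to 0.78 with the index but did not pass, and their values were smaller without those 2 pools. *Nlrc5* went from 0.78 to 0.43 without them, *H2-D1* from 0.71 to 0.36, *H2-K1* from 0.69 to 0.36 and *B2m* from 0.65 to 0.38 (permutation p over all pools 0.0278, 0.0631, 0.0726 and 0.103, adjusted p = 0.0586, 0.109, 0.115 and 0.139; rho 0.61, 0.67, 0.63 and 0.66). *Tapbp* had r = 0.28 and rho = 0.25 (permutation p = 0.654 and 0.575), and *Calr* r = 0.30 and rho = 0.25 (permutation p = 0.475 and 0.566). The difference between a member's r with *Nlrc5* and its r with the index was not tested.

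Among the members themselves the closest pairs were those of the heavy chains with each other, with *B2m* and with *Nlrc5*. As a description over the 11 pools, which share a scaling within each pool, the deviations of *H2-K1* and *H2-D1* had r = 0.97, those of *B2m* with the heavy chains 0.96 and 0.94, and those of *Tap1* and *Tap2* 0.81. *Tapbpl* had 0.80 with *Tap1*, 0.61 with *Tap2* and 0.82 to 0.86 with the light and heavy chains. *Erap1* had 0.72 with *Tapbpl*, 0.69 with *Tap1*, 0.51 with *Tap2* and 0.56 to 0.64 with *Nlrc5* and the light and heavy chains. *Tapbp* was nearer to the heavy chains (0.66 and 0.77) than to *Tap1* or *Tap2* (0.09 and 0.10). *Calr* had values from -0.44 with *B2m* to 0.40 with *Tap2*.

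**Figure D5:**
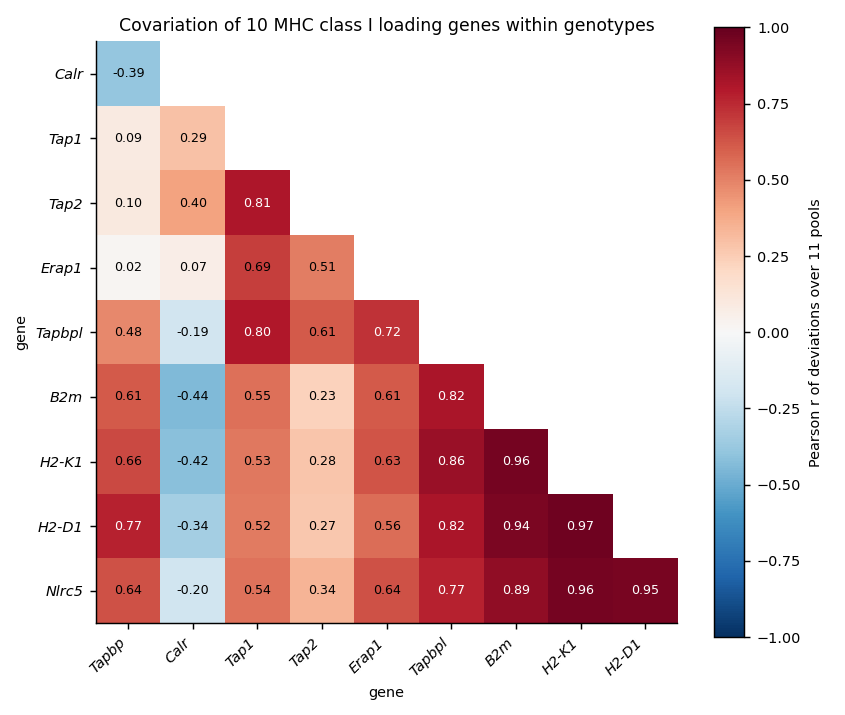
Pearson r between the deviations of each pair of the 10 genes from their genotype means in log2 CPM, over 11 pools (color: r from -1 to 1). The block of *B2m*, *H2-K1*, *H2-D1* and *Nlrc5* holds values of 0.89 to 0.97, and the column of *Calr* runs from -0.44 to 0.40.

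Over all 11 pools and with the genotype differences kept in, the genes most like *Tapbp* included no class I gene. The 10 highest of 10950 by Pearson r of log2 CPM, a description with no test, were *Bloc1s1* (r = 0.961), *Tspan17* (0.956), *Evi2a* (0.954), *Pbxip1* (0.940), *Pomgnt1* (0.931), *Pkd1* (0.927), *Sharpin* (0.920), *Ppp2r5a* (0.915), *Furin* (0.908) and *Slc1a5* (0.907). *Bloc1s1*, a subunit of the BLOC-1 complex and a RIDD substrate in many cell types, and *Furin*, a proprotein convertase, are on the same RIDD target list as *Tapbp*. That list held 78 of the 10951 genes tested. *Bloc1s1* had log2 differences from control of -0.87 in XBP1ΔDC and 0.11 in XBP1ΔDCIRE1truncDC, *Slc1a5*, an amino acid transporter, -0.86 and 0.088, and *Furin* -0.48 and -0.005. The 10 genes ranged in XBP1ΔDC from -0.94 (*Tspan17*) to -0.16 (*Ppp2r5a*). Genotype differences were kept in the ranking, so a pattern like that of *Tapbp* follows from the choice of genes. *Itgb2*, the integrin chain with the smallest p of all genes in XBP1ΔDC, was at rank 24 (r = 0.86). Of the members, *H2-D1* was nearest to *Tapbp* at rank 411 (r = 0.57), *Tap2* was at rank 865 (r = 0.46), and *Tapbpl* at rank 4374 (r = 0.09).

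Partners of tapasin and the enzymes that control the glycan on the heavy chain were followed in a list of 7 genes. None passed the test in edgeR in any comparison. *Uggt1*, the glucosyltransferase that returns unloaded class I to calreticulin, and which the study also lists as an XBP1s target, was at 235.1 to 264.3 CPM in controls, 179.0 to 220.6 in XBP1ΔDC and 193.0 to 221.2 in XBP1ΔDCIRE1truncDC. Both mutants thus lay below every control. Its log2 differences were -0.34 (standard error 0.0787, edgeR adjusted p = 0.0745) and -0.28 (standard error 0.0854, edgeR adjusted p = 0.238). *Mogs*, the first glucosidase of the N-glycan pathway, showed the same separation, at 116.6 to 143.1, 84.65 to 114.2 and 97.92 to 112.6 CPM, with differences of -0.39 and -0.36 (edgeR adjusted p = 0.137 and 0.227). *Pdia3*, which encodes ERp57, the disulfide partner of tapasin, was at 1358 to 1452 CPM in controls and at 1739, 1997 and 1411 CPM in XBP1ΔDCIRE1truncDC replicates 1 to 3, a log2 difference of 0.29 (edgeR adjusted p = 0.277). The lowest of these was replicate 3, as for *Calr*. Pools did not overlap with control for 4 of the 7 in XBP1ΔDC, *Uggt1*, *Mogs* and *Canx* on the lower and *Bcap31* on the higher side, against 5.31% of all genes. In XBP1ΔDCIRE1truncDC they did not overlap for 3, *Uggt1*, *Mogs* and *Ganab*, all lower, against 10.1%. *Ganab*, the catalytic subunit of glucosidase II, had -0.10 and -0.15 (edgeR adjusted p = 0.892 and 0.584). In XBP1ΔDC 2 of the 7 had an unadjusted p under 0.05, both lower, against 7.62% of all genes, and in XBP1ΔDCIRE1truncDC 2 lower and 1 higher, against 11.2%.

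Of 16 other class I heavy chain genes, 8 passed the filter, and 0 passed the test in edgeR in any comparison. *H2-M3*, which presents formylated peptides, had a log2 difference of -0.22 in XBP1ΔDC (edgeR adjusted p = 0.564) and -0.20 in XBP1ΔDCIRE1truncDC (edgeR adjusted p = 0.475). *H2-T23*, which encodes the Qa-1 heavy chain and is on the RIDD target list, was at 399.7 to 486.7 CPM in controls, 307.1 to 425.8 in XBP1ΔDC and 426.9 to 486.8 in XBP1ΔDCIRE1truncDC. XBP1ΔDC pools overlapped with controls and lay just below every XBP1ΔDCIRE1truncDC pool. The differences were -0.20, 0.061 and 0.26 in the 3 comparisons (edgeR adjusted p = 0.748, 0.908 and 0.931). *H2-Q4* had 0.19 and 0.52 and *H2-T24* -0.36 and -0.36 against control, all with an edgeR adjusted p of at least 0.562. At an unadjusted p under 0.05 there were 1 gene in XBP1ΔDC, *H2-M3*, none in XBP1ΔDCIRE1truncDC and 1 between the mutants, *H2-T23*, against 7.62%, 11.2% and 5.29% of all genes.

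Transcription factors of class I promoters formed a list of 15 genes, all tested, with 0 called by edgeR. *Irf1*, the interferon-induced activator of *Nlrc5* and class I genes, was at 142.4 to 274.1 CPM in controls, 217.1 to 435.6 in XBP1ΔDC, and 270.8, 448.6 and 448.5 CPM in XBP1ΔDCIRE1truncDC. The log2 difference was 0.47 in XBP1ΔDC (edgeR adjusted p = 0.753) and 0.87 in XBP1ΔDCIRE1truncDC (standard error 0.267, unadjusted p = 0.00648, adjusted p = 0.238 in edgeR). *Nfyc*, a subunit of the Y box factor, had 0.088 and 0.28 (edgeR adjusted p = 0.959 and 0.467), and *Rela* had 0.14 and 0.19 (edgeR adjusted p = 0.885 and 0.621). In XBP1ΔDC 13 of the 15 lay on the higher side, with a median of 0.12 and none at an unadjusted p under 0.05, where of all 10951 genes 5602 lay on the higher side, with a median of 0.005. In XBP1ΔDCIRE1truncDC 11 lay on the higher side, against 5411 of all genes, and 2, *Irf1* among them, had an unadjusted p under 0.05, against 11.2% of all genes.

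Peptide supply, that is immunoproteasome subunits, the proteasome activator and cytosolic peptidases, was a list of 14 genes of which 13 were tested and 0 called by edgeR. *Psme2*, a chain of the activator PA28, had log2 differences of 0.20 in XBP1ΔDC and 0.36 in XBP1ΔDCIRE1truncDC (edgeR adjusted p = 0.799 and 0.324), and *Psme1*, its partner, 0.12 and 0.19 (edgeR adjusted p = 0.862 and 0.477). *Psmb10*, an immunoproteasome subunit, had 0.27 and 0.31 (edgeR adjusted p = 0.734 and 0.462), and the aminopeptidase *Npepps* 0.24 and 0.19 (edgeR adjusted p = 0.629 and 0.598). On the higher side lay 10 of the 13 in XBP1ΔDC and 12 of the 13 in XBP1ΔDCIRE1truncDC, with medians of 0.10 and 0.096. At an unadjusted p under 0.05 there was 1 gene in each, *Npepps* and *Psme2*, against 7.62% and 11.2% of all genes.

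In XBP1ΔDCIRE1truncDC most marker genes of maturation and interferon had fitted values above control, and none was called. All 7 tested mature dendritic cell markers had an unadjusted p under 0.05 on the higher side against control, with a median log2 difference of 0.90, although none was called by edgeR. Of all genes 11.2% had such a p, 628 of 10951 on the higher side. In XBP1ΔDC all 7 markers also lay above control, from 0.067 (*Ccl22*) to 0.62 (*Socs2*), none with an unadjusted p under 0.05 in edgeR. Their summed level was 2287 to 4609 CPM in controls, 2999 to 6215 in XBP1ΔDC and 4244 to 8526 in XBP1ΔDCIRE1truncDC pools. The 24 interferon genes had a median of 0.30 in XBP1ΔDC, with 23 on the higher side, and of 0.42 in XBP1ΔDCIRE1truncDC, with 20 on the higher side, where of all 10951 genes 5602 and 5411 lay on that side. None of the 24 was called by edgeR, and 2 and 3 had an unadjusted p under 0.05, against 7.62% and 11.2% of all genes. Melanoma transcripts summed to 8.22 to 59.1 CPM in controls, 11.2 to 63.3 in XBP1ΔDC and 6.30 to 8.76 in XBP1ΔDCIRE1truncDC. Macrophage and monocyte markers summed to 27.5 to 47.0, 33.3 to 103 and 30.8 to 84.2 CPM. Plasmacytoid dendritic cell markers summed to 38.8 to 47.7 CPM in controls, 31.1 to 35.3 in XBP1ΔDC and 22.5 to 38.6 in XBP1ΔDCIRE1truncDC. Both mutants lay below every control, and the 3 tested had log2 differences of -1.12 to -0.20 in XBP1ΔDC and -1.85 to -0.073 in XBP1ΔDCIRE1truncDC, with none called by edgeR. Fibroblast and endothelial markers summed to 7.07 to 13.0, 8.37 to 30.2 and 9.0 to 12.2 CPM. Of these 4 lists, *C1qc* (log2 difference 1.27) and *Col1a1* (2.63) had an unadjusted p under 0.05 in XBP1ΔDC, and *Dct* (-2.45), *Pmel* (-1.99), *Ccr9* (-1.17) and *Siglech* (-1.85) in XBP1ΔDCIRE1truncDC, with none called by edgeR. The part of these differences in the values of the 10 genes was not tested.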

How the data were processed

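Tumor cDC1s were measured by bulk RNA-seq in 11 pools. Libraries were made with a full-length cDNA kit that does not mark strand. Per the study's methods and the submitters' processing notes, the authors used FastQC (0.11.8), Trimmomatic (0.39), STAR (2.7.3a) on mm10, HTSeq counting and limma (3.42.2). The deposited raw counts per gene were used for every test. The deposited log2 values were recomputed from the counts by voom after TMM (largest difference 4.97e-14 over 11118 genes) and served only as a check.

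The low-count filter asked for more than 1 CPM in 4 or more of the pools, which 10951 of 24421 genes met. All 3 genotypes were fitted together in edgeR (4.0.16, R 4.3.3) by the quasi-likelihood test with TMM scaling and no covariate, and p-values were adjusted by Benjamini-Hochberg over all tested genes. Log2 CPM for correlations used a prior count of 2. The named genes were the 10 members, the 10 genes most correlated with *Tapbp*, in each pathway list up to 4 genes with the smallest p, and list genes on the target lists of the study. *Itgb2*, *Canx*, *Bcap31* and single marker genes were named after their values were seen. One gene of the transcription factor list is not reported here by name. The members and lists were chosen with earlier results of these data known. Sequences came from GRCm38 (GENCODE vM21) and RefSeq (GRCm38.p6). Alternatives were DESeq2 (1.42.0), limma-voom (3.58.1), other scalings and filters, a replicate block, and leaving out each pool. Chi-square per degree of freedom between pools of a genotype was at least 19.9, so no library was counted as a duplicate. The fitting code was tested on counts simulated with a lower dispersion than the common value fitted here (0.0473). For XBP1ΔDC against control, edgeR recovered 7 of 50 genes changed 1.3-fold, 33 of 50 changed 1.5-fold and 50 of 50 changed 2-fold.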

Additional observations from a re-analysis of the deposited data

How the results depend on the processing

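*Tapbp* was lower in XBP1ΔDC than in control under all 22 refits, with log2 fold changes of -0.62 to -0.44 and adjusted p of 0.00112 to 0.148. It passed in 12 and not in 10, and a 1.5-fold limit as alternative 23 ended the call as well. Members called in that comparison were 0 rather than 1 with only the 2 genotypes compared (adjusted p of *Tapbp* 0.0621), with a replicate block (0 called; -0.54, adjusted p = 0.0825) and with a 1.5-fold limit (0 called), and 0 to 1 when 1 pool was left out. Between the mutants the count was 1 rather than 0, *Tapbp*, with DESeq2 (adjusted p = 9.52e-05), library size scaling (0.0407) and no filter (0.0396), and the log2 fold change ranged from 0.60 to 0.78. No other member passed in any comparison under any of the 22 refits. The cause of these changes was not tested.

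Signs turned for members with main log2 differences of -0.037 to 0.13, none of them called. Against control, XBP1ΔDC gave 0.0207 for *B2m*, 0.0105 for *H2-K1* and 0.0031 for *H2-D1* with library size scaling. For *Erap1* in XBP1ΔDCIRE1truncDC the value was -0.0175 with upper quartile scaling and -0.015 with the replicate block. Leaving out 1 pool gave -0.0245 to 0.1062 for *Tap1*, -0.0741 to 0.0088 for *Tap2*, -0.0059 to 0.0474 for *Erap1*, -0.1656 to 0.0857 for *B2m*, -0.137 to 0.0766 for *H2-K1* and -0.1338 to 0.0667 for *H2-D1* in XBP1ΔDC, -0.0362 to 0.059 for *Erap1* in XBP1ΔDCIRE1truncDC, and, between the mutants, -0.0145 to 0.1807 for *Tapbpl*, -0.0323 to 0.1464 for *Tap1*, -0.0501 to 0.0477 for *Erap1*, -0.006 to 0.254 for *Calr* and -0.0045 to 0.2915 for *Nlrc5*. Members passing against the interferon index numbered 1 rather than 4 with library size scaling, an alternative chosen after seeing the data, and 3 rather than 4 against *Nlrc5*, where *Tapbpl* was lost.

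The order of control levels per kilobase changed with the length of 1 transcript in place of all exons, an alternative added after seeing the data: *H2-K1* was at 872 and *H2-D1* at 754 CPM per kb.

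Genes called over the whole table were 98, 39 and 8 in the 3 comparisons, 172, 193 and 59 with DESeq2, and 59, 12 and 3 with the replicate block. Replicate numbers did not pair the pools: the deviations of pools with one number correlated on average at 0.0979, 0.00353 and -0.221 in the 3 pairs of groups. With 3 or 4 pools a genotype, differences as small as those of most members could not be told from 0.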
